A study of Mus musculus with 9 samples.

Results

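The genes described here make, bind and organise hyaluronan: the synthases Has1, Has2 and Has3, the link proteins Hapln1, Hapln2 and Hapln4, the matrix organisers Ptx3 and Tnfaip6, the proteoglycan versican (Vcan) and the receptor Cd44. They were chosen by name, and all 10 were found among the 19938 genes with a single symbol on the array, each through 1 probe set. The choice was made with the changes between the genotypes already known, so the members' changes and calls below are a description of these arrays, and no p-value is given for them. The arrays hold RNA from uncultured ventricular zone cells of newborn C57BL/Ka mice. Radial glia, the stem cells of the developing brain, have their cell bodies in this zone. The genotypes were Prdm16LacZ/LacZ (KO), Prdm16LacZ/+ (HET) and Prdm16+/+ (WT), with 3 arrays each and no treatment. Prdm16 encodes a zinc finger regulator of transcription, and the sources used here do not say how its LacZ allele was made. No label says that the arrays of a genotype came from separate pups or litters, so every error below measures the spread between arrays, which may be technical.

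Hyaluronan is a long, unsulfated sugar chain that synthases in the cell membrane assemble from UDP-glucuronic acid and UDP-N-acetylglucosamine and push out of the cell. Lecticans such as versican bind the chain through their N-terminal domain, and link proteins lock that bond. The secreted protein TSG-6, made from Tnfaip6, transfers heavy chains of the inter-alpha-inhibitor family onto hyaluronan, and the long pentraxin Ptx3 ties such chains together in the matrix around the mouse oocyte. In the brain this matrix fills the space between cells and later forms nets around neurons.

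Values are log2 levels as deposited, with array medians between 5.80 and 5.92 and lower quartiles between 4.53 and 4.68. The number of arrays limits the precision. Prdm16 was at 5.69, 6.41 and 6.17 on the KO arrays, 6.995, 7.34 and 6.998 on the HET arrays and 7.62, 7.57 and 7.23 on the WT arrays, so that each KO array lay below every other array. Of 8 radial glia markers, 4 (Sox2, Vim, Slc1a3 and Fabp7) lay above the upper quartile of every array and 0 were under the lower quartile throughout. Neuronal markers were also high, with 5 of 6 above the upper quartile of every array. In such bulk RNA, fewer cells of a type and less RNA per cell cannot be told apart.

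In KO ventricular zone the synthase Has2 and the pentraxin Ptx3 were higher than in WT and the link protein Hapln1 was lower, while Has1, Has3, Hapln2, Hapln4, Tnfaip6 and Cd44 had overlapping arrays. Versican was lower on every KO array than on any WT array but did not pass the test over all genes. A gene was called where limma's adjusted p, over all 19938 genes, was under 0.05. By that rule 3 of the 10 members were called in KO against WT, 2 higher and 1 lower, against 0.451% of all genes (0.166% higher and 0.286% lower). The KO and WT groups did not overlap for 4 of the 10, against 9.98% of all genes. Nothing is read from these shares, since the choice of members used this contrast. The median log2 change of the 10 was -0.06, beside 0.01 over all genes.

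**Figure D1:**
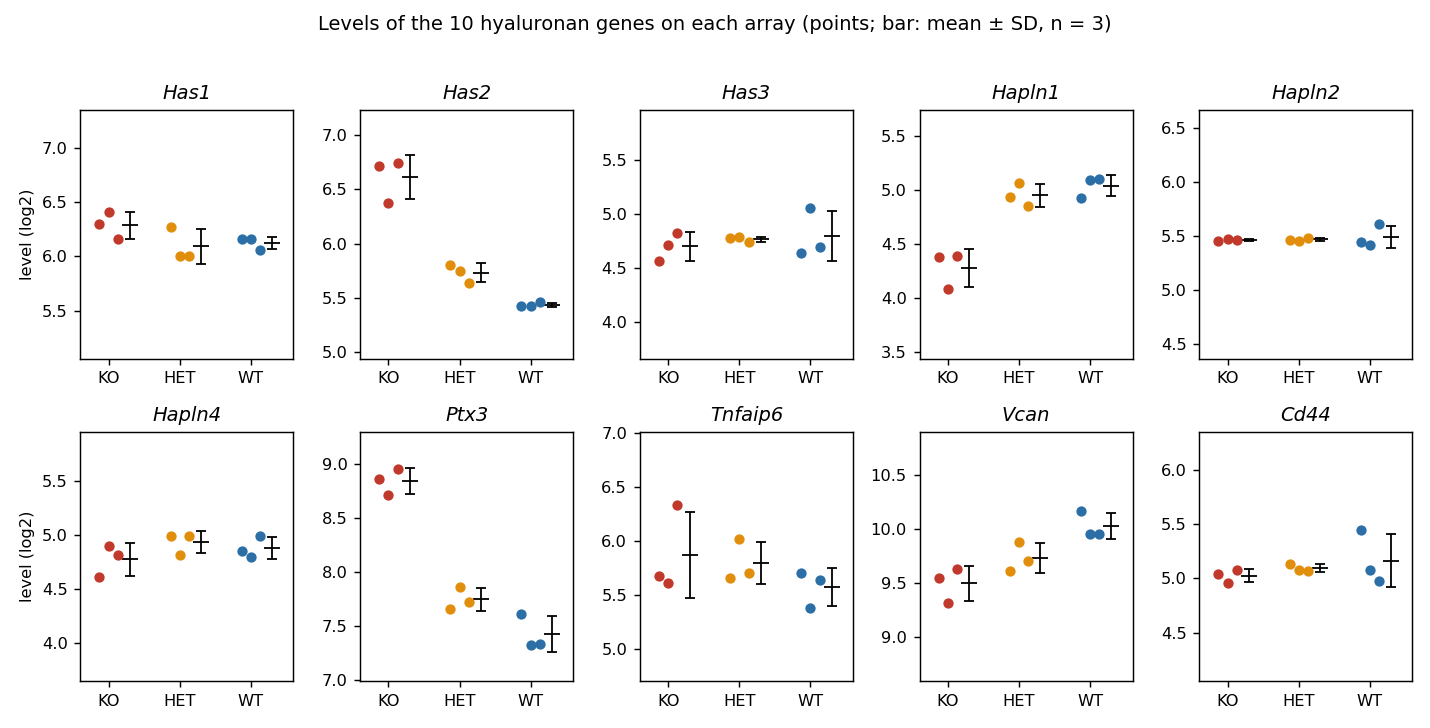
Log2 level (vertical axis, 2.3 units in every panel) of each hyaluronan gene on each array, with KO, HET and WT from left to right; points are arrays and the bar beside them is the mean ± SD of 3 arrays. Has2 and Ptx3 have their 3 KO arrays well above the rest, Hapln1 has them below, and Vcan steps up towards WT.

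Promoter sequence is shown for Ptx3 and Hapln1, which were called in KO against WT, and for Tnfaip6, whose window held the most motif matches. The sequences are from RefSeq (GRCm38.p6). The set of promoter windows used here held 7 of the 10 members, all but Has2, Has3 and Hapln4. Each line gives the 250 bases before the annotated start, read 5′ to 3′ on the gene's strand. The Ptx3 window is chr3:66219637-66219886 (+ strand), the Hapln1 window chr13:89540386-89540635 (+ strand) and the Tnfaip6 window chr2:52037863-52038112 (+ strand). Capitals mark motif matches.
Ptx3: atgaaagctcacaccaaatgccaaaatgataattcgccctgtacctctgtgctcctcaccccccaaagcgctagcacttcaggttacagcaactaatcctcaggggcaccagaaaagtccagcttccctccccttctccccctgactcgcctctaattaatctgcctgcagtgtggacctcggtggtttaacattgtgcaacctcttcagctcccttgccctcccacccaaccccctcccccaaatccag
Hapln1: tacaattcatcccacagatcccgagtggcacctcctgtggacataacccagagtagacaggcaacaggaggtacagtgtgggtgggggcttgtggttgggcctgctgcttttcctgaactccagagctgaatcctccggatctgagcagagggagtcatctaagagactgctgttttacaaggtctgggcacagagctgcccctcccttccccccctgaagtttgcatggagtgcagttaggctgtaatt
Tnfaip6: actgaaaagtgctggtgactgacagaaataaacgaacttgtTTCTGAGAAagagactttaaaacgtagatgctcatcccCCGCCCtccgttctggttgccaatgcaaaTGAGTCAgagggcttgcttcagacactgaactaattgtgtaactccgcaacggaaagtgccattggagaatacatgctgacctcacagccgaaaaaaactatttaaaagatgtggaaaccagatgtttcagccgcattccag

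Motifs were searched on both strands: the TATA box motif TATAAA, the AP-1 motif TGANTCA, the STAT motif TTCNNNGAA, the GC box motif GGGCGG, the E-box motif CACGTG and an NF-kB motif. The windows of Ptx3 and Hapln1 held 0 matches to any of the 6, which says only that these letters are not in the windows. In Tnfaip6 the STAT letters began 209 bases before the start, the GC box on the opposite strand 171 bases before it and the AP-1 letters 142 bases before it. These matches do not overlap each other. Over all 32851 windows of this length, 7.02% held the STAT letters, 32.7% the GC box, 6.75% the AP-1 letters, 12.4% the TATA box, 7.25% the NF-kB motif and 6.02% the E-box. The Vcan window held the GC box at 2 places, and those of Has1, Hapln2 and Cd44 held 0 matches. GC content was 54.0% for Ptx3, 54.4% for Hapln1 and 44.4% for Tnfaip6, beside a median of 52.4% over all windows.

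Has2, the synthase that supplies most hyaluronan in the mouse embryo, was at 6.71, 6.38 and 6.75 on the KO arrays, 5.80, 5.75 and 5.64 on the HET arrays and 5.42, 5.42 and 5.46 on the WT arrays. No array of any genotype overlapped another genotype, and the WT arrays were nearly identical (SD 0.020). Has2 rose 2.26-fold in KO against WT, a log2 change of 1.18 (SE 0.10, n = 3 per genotype). This was the rank 10 rise among all genes. In KO against HET it rose by 0.88 on the log2 scale (SE 0.10), and in HET against WT the change of 0.30 (SE 0.10) did not pass. The WT level lay below the median of every array, and the KO level above it. The KO against WT call held in all 21 alternatives, with changes between 1.11 and 1.30. Among these, the looser threshold cannot remove a call. The replicate block, the trend and robust settings of eBayes and the filter on dim genes can alter its error but not its change. In KO against WT the same holds for leaving out HET arrays alone. The probe set settings leave the values of each member, with its 1 probe set, unchanged. The KO against HET call was lost with only the KO and HET arrays in the fit and without HET replicate 2.

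The other synthases were not called. Has1 was at 6.30, 6.41 and 6.16 on the KO arrays, 6.28, 6.0 and 6.0 on the HET arrays and 6.16, 6.16 and 6.06 on the WT arrays. KO replicate 3 equalled WT replicates 1 and 2, so the groups touch, and the log2 change was 0.16 (SE 0.10). Has3 was at 4.56, 4.71 and 4.82 on the KO arrays, 4.77, 4.78 and 4.74 on the HET arrays and 4.63, 5.05 and 4.69 on the WT arrays, near the lower quartile of the arrays. Its KO against WT change was -0.10 (SE 0.11), with the KO arrays inside the WT range but for KO replicate 1. At that level a small change in Has3 might not be seen.

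Ptx3 was at 8.86, 8.72 and 8.96 on the KO arrays, 7.66, 7.86 and 7.73 on the HET arrays and 7.62, 7.33 and 7.34 on the WT arrays. All 9 values lay above the upper quartile of their array, the genotypes did not overlap, and the closest pair across genotypes was HET replicate 1 and WT replicate 1. Ptx3 rose 2.67-fold in KO relative to WT, by 1.42 on the log2 scale (SE 0.10), the rank 4 rise among all genes. In KO against HET it rose 2.14-fold (log2 change 1.10, SE 0.10), also rank 4. Both calls held in all 21 alternatives, with the limits given for Has2. In KO against HET, leaving out a WT array likewise left the change as it was. The HET against WT change of 0.32 (SE 0.10) did not pass.

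Has2 and Ptx3 were the 2 members whose 3 genotypes were all apart, which 98 of 19938 genes (0.492%) were. The HET change from WT was 25.1% of the KO change for Has2 and 22.7% for Ptx3; both changes use the same WT arrays. Within the KO arrays the lowest value of each gene was on replicate 2 and the highest on replicate 3. KO replicate 2 had the lowest array weight (0.364). Among the KO arrays, Hapln1, Vcan, Tnfaip6 and Cd44 were lowest on it as well, while Has1, Hapln2 and Hapln4 were highest on it.

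Tnfaip6, the partner of Ptx3 in the oocyte matrix, was at 5.67, 5.62 and 6.33 on the KO arrays, 5.66, 6.02 and 5.71 on the HET arrays and 5.71, 5.38 and 5.64 on the WT arrays. KO replicate 3 alone stood above all WT and HET arrays, and the other KO arrays lay within the WT range. The log2 change in KO against WT was 0.30 (SE 0.18), the largest SE among the members. Without KO replicate 3 it was 0.07.

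Hapln1, which stabilises the bond between hyaluronan and lecticans, was at 4.38, 4.08 and 4.38 on the KO arrays, 4.94, 5.06 and 4.85 on the HET arrays and 4.92, 5.09 and 5.10 on the WT arrays. Every KO array lay below every HET and WT array, and the HET and WT arrays overlapped. Hapln1 fell 1.69-fold in KO relative to WT, a log2 change of -0.75 (SE 0.10), and 1.59-fold relative to HET, a log2 change of -0.67 (SE 0.10). The KO values lay below the lower quartile of their arrays, where a value can be background as well as transcript. Its call in KO against WT did not hold when any 1 of the WT arrays was left out, with only the KO and WT arrays in the fit, or when HET replicate 1 and KO replicate 2 were both left out. The KO against HET call was lost in 16 of 20 alternatives, the replicate block among them, with changes between -0.72 and -0.57. It was kept at the looser threshold, which cannot remove a call, in both probe set settings and with the trend and robust settings of eBayes.

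Hapln2, a link protein of the nodes of Ranvier, was between 5.46 and 5.47 on the KO arrays, 5.45 and 5.49 on the HET arrays and 5.42 and 5.61 on the WT arrays. Its KO against WT change was -0.03 (SE 0.075). Hapln4, a link protein of nets around neurons, was between 4.61 and 4.90 on the KO arrays, 4.81 and 4.99 on the HET arrays and 4.79 and 4.99 on the WT arrays, with a change of -0.10 (SE 0.099). All 9 values of each lay below the median of their array, and the genotypes overlapped.

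Vcan, the lectican most abundant in embryonic matrix, was at 9.55, 9.32 and 9.63 on the KO arrays, 9.61, 9.88 and 9.70 on the HET arrays and 10.17, 9.96 and 9.96 on the WT arrays. All 9 values lay above the upper quartile of their array. Each KO and HET array lay below every WT array, while HET replicate 1 lay below KO replicate 3. The log2 change was -0.53 (SE 0.11) in KO against WT and -0.30 (SE 0.11) in HET against WT, and neither passed. The KO against WT change was called with array weights, with quantile normalization and at an adjusted p under 0.10. Of the 10 members, Vcan had the lowest HET against WT change.

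In the mouse genome each link protein gene lies beside a lectican gene. By RefSeq annotation, 0 protein-coding genes separate Hapln1 from Vcan on chromosome 13, Hapln2 from Bcan on chromosome 3, Hapln3 from Acan on chromosome 7 and Hapln4 from Ncan on chromosome 8. Hapln1 and Vcan, at -0.75 and -0.53 in KO against WT, were thus neighbours. Hapln2 and brevican (Bcan) lay at -0.03 and -0.33, Hapln3 and aggrecan (Acan) at -0.11 and -0.06, and Hapln4 and neurocan (Ncan) at -0.10 and -0.13. Of these 8 genes Hapln1 was the 1 that was called, and all 8 changes were below 0, beside a median of 0.01 over all genes. The changes of Hapln2, Hapln3 and Acan were smaller than their SE (0.075, 0.12 and 0.08). Nothing is read from the shared sign. The members were chosen with this contrast known, and Acan and Hapln3 were added after their values were seen.

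Cd44, the main cell surface receptor for hyaluronan, was at 5.05, 4.96 and 5.08 on the KO arrays, 5.14, 5.08 and 5.07 on the HET arrays and 5.44, 5.08 and 4.98 on the WT arrays. WT replicate 1 stood above the other arrays, which overlapped. The KO against WT change was -0.14 (SE 0.11), and without WT replicate 1 it was near 0.

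**Figure D2:**
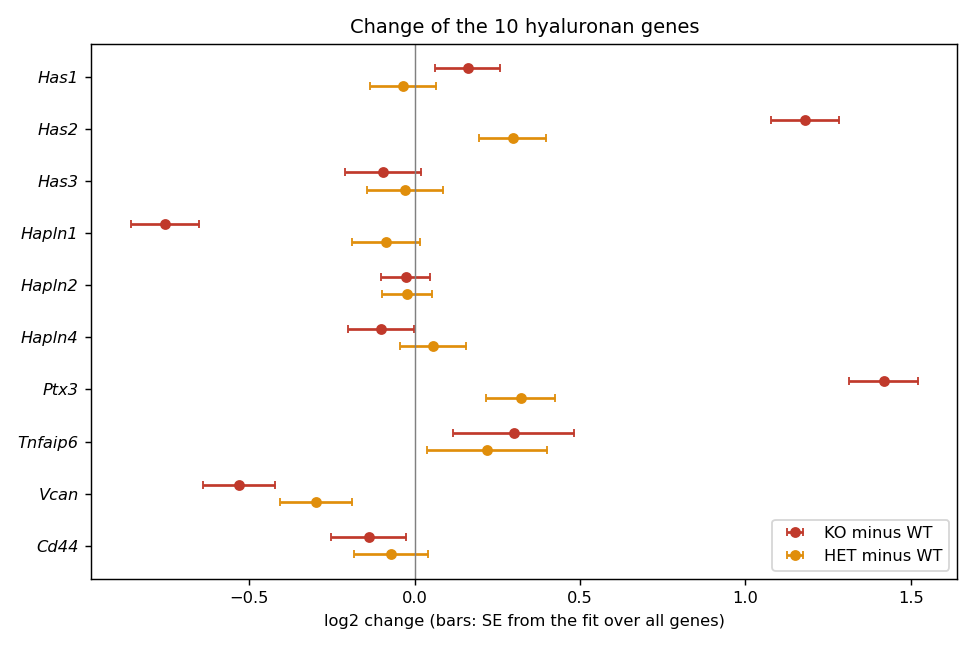
Log2 change (horizontal axis) of each member in KO minus WT and in HET minus WT, with the SE of the fit over all genes. Ptx3 and Has2 lie at 1.42 and 1.18 in KO and near 0.3 in HET, while Hapln1 lies at -0.75 in KO and -0.09 in HET.

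In HET against WT, 0 of 10 members were called by limma, and 0 of all genes (0%) were. Of all genes, 808 (4.05%) had an unadjusted p under 0.05. The groups did not overlap for 3 members, Has2, Ptx3 and Vcan, against 6.85% of all genes. In KO against HET, 3 of 10 were called (Has2 and Ptx3 higher, Hapln1 lower), against 0.206% of all genes (0.0451% higher and 0.16% lower). The KO and HET groups did not overlap for these 3 genes, against 6.54% of all genes. This comparison shares the KO arrays with KO against WT, so its calls are no second measurement. Nothing is read from the shares in these comparisons either, since the members were chosen with them known.

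The other genes of the hyaluronan matrix were taken from a list by role, of which 42 of 46 were measured: enzymes of sugar supply, of breakdown, further receptors, lecticans and the link protein Hapln3, tenascins, heavy chains, proteases that cut lecticans, and pentraxins. None of the 42 was called by limma in any of the 3 comparisons, nor in any alternative. Unadjusted p-values under 0.05 numbered 5 in KO against WT, 2 in HET against WT and 5 in KO against HET, beside 6.15%, 4.05% and 6.16% of all genes. In the same order, the groups did not overlap for 7, 3 and 6 of the 42, beside 9.98%, 6.85% and 6.54% of all genes. In KO against WT 21 lay above 0 and 21 below, with changes between -0.47 and 0.38 and a median of 0.00, beside 0.01 over all genes.

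Among the enzymes that supply the sugars, 5 of 7 lay above 0 and 0 of 7 were called. Gfpt1, the entry enzyme of the hexosamine pathway, was at 8.34, 8.42 and 8.37 on the KO arrays and 8.13, 8.12 and 8.18 on the WT arrays. These groups did not overlap, with a log2 change of 0.23 (SE 0.075, limma adjusted p = 0.52). Ugdh, which makes UDP-glucuronic acid, changed by 0.24 (SE 0.13, limma adjusted p = 0.91), with overlapping arrays.

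Of 6 measured breakdown genes 0 were called, with changes between -0.18 and 0.08. The lowest was Gusb, the lysosomal beta-glucuronidase, at -0.18 (SE 0.11), followed by Hyal3, a hyaluronidase family member, at -0.10 (SE 0.12). The 7 further receptors lay between -0.07 and 0.18, with 0 called. Tlr2, an innate immune receptor for hyaluronan fragments, changed by 0.18 (SE 0.094), and its KO arrays (5.45 to 5.77) did not overlap its WT arrays (5.36 to 5.40). Tlr4 was under the lower quartile on all 9 arrays.

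All 4 genes of the lectican and link group lay below 0 in KO against WT, and 0 were called. Bcan, a brain lectican, was at 7.45, 7.29 and 7.41 on the KO arrays, 7.97, 7.99 and 7.66 on the HET arrays and 7.59, 7.75 and 7.82 on the WT arrays. Every KO array lay below the others, with a change of -0.33 (SE 0.11, limma adjusted p = 0.50) against WT and -0.49 (SE 0.11, limma adjusted p = 0.20) against HET. Ncan, another brain lectican, changed by -0.13 (SE 0.093, limma adjusted p = 0.97) in KO against WT.

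The heavy chain group had 5 of 6 genes below 0 and 0 called. Itih1, Itih2, Itih4 and Itih5 lay below the median on all 9 arrays, and Ambp under the lower quartile. Small changes in these genes might not be seen. Itih3, a heavy chain that TSG-6 can move onto hyaluronan, was at 5.82, 5.98 and 5.57 on the KO arrays, 6.23, 6.35 and 6.19 on the HET arrays and 6.12, 6.60 and 6.07 on the WT arrays. Its KO arrays lay below all others, with a change of -0.47 (SE 0.15, limma adjusted p = 0.47) against WT. Itih5 changed by -0.36 (SE 0.16, limma adjusted p = 0.81), with KO replicate 3 well below the other arrays. Tenascins, which cross-link lecticans, had Tnr at 0.33 (SE 0.15) and Tnc at -0.18 (SE 0.18). The KO arrays of Tnr (6.23 to 6.39) did not overlap its WT arrays (5.82 to 6.15), while those of Tnc did.

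Of 6 lectican proteases 0 were called. Adamts5 was at 6.69, 6.04 and 6.35 on the KO arrays and 5.77, 6.05 and 6.10 on the WT arrays, a change of 0.38 (SE 0.16, limma adjusted p = 0.74) with overlapping groups. Adamts9 was at 7.30, 7.26 and 7.29 on the KO arrays, 7.01, 6.91 and 6.90 on the HET arrays and 7.15, 7.12 and 7.25 on the WT arrays. The KO arrays stood above both other groups and the HET arrays below them, with 0.34 (SE 0.072, limma adjusted p = 0.17) in KO against HET and 0.11 (SE 0.072) in KO against WT. The 4 measured pentraxins lay between -0.15 (Nptx1, SE 0.087) and 0.10 (Apcs, SE 0.087), with 0 called. Crp and Apcs were under the lower quartile on all 9 arrays and Nptx1 under the median. At such levels a small change might not be seen. Ptx3, at 1.42, belongs to the same family.

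**Figure D3:**
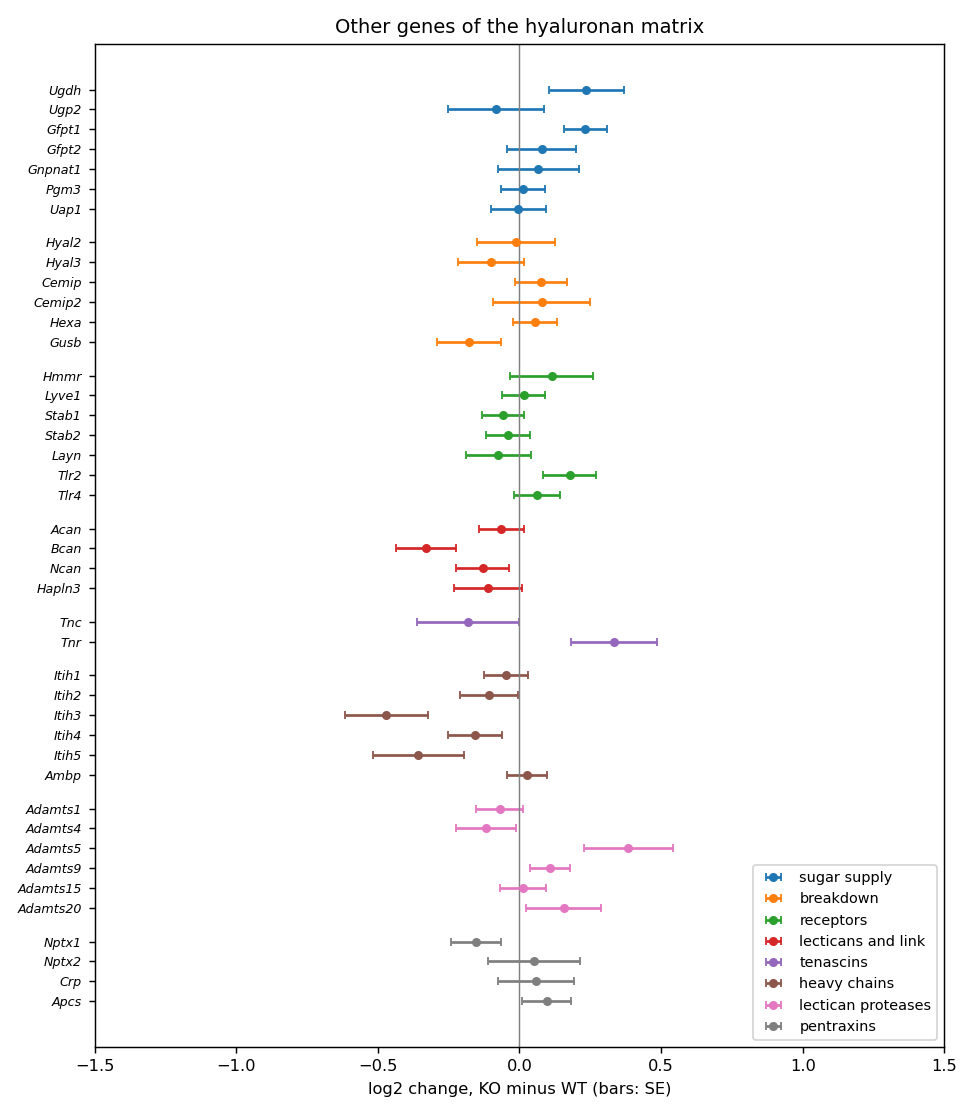
Log2 change in KO minus WT (horizontal axis, bars are the SE) of the 42 measured genes of the hyaluronan matrix outside the members, coloured by role. All lie between -0.47 and 0.38, and 0 were called.

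The array profiles closest to Has2 and Ptx3 were sought among all genes, with predicted and clone genes passed over. Each gene was centred on its own mean, and the root mean square difference over the 9 arrays was taken. For Has2 the closest were Lifr (0.14), the receptor of leukemia inhibitory factor, then Ptx3 (0.16), the protocadherin Fat4 (0.16), the ubiquitin ligase Pdzrn3 (0.18) and Arsb (0.19), a lysosomal sulfatase. For Ptx3 they were Pdzrn3 (0.14), Has2 (0.16), Fat4 (0.23), Lifr (0.23) and Scrg1 (0.23). With those genes passed over, Ptx3 was thus second in the order for Has2, and Has2 second for Ptx3. The differences of the other members from Has2 ran from 0.44 for Tnfaip6 to 0.84 for Hapln1. Arsb was at 7.98, 7.74 and 7.92 on the KO arrays, 7.39, 7.24 and 7.42 on the HET arrays and 7.09, 7.06 and 7.11 on the WT arrays, so its genotypes were apart as those of Has2 were. The genotypes of Pdzrn3 and Scrg1 were apart as well, while Fat4 and Lifr had HET arrays within or near their WT range. These likenesses include the genotype difference itself and carry no test. Has2 and Ptx3 were chosen with that difference known, so nothing is read from their places in each other's order.

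**Figure D4:**
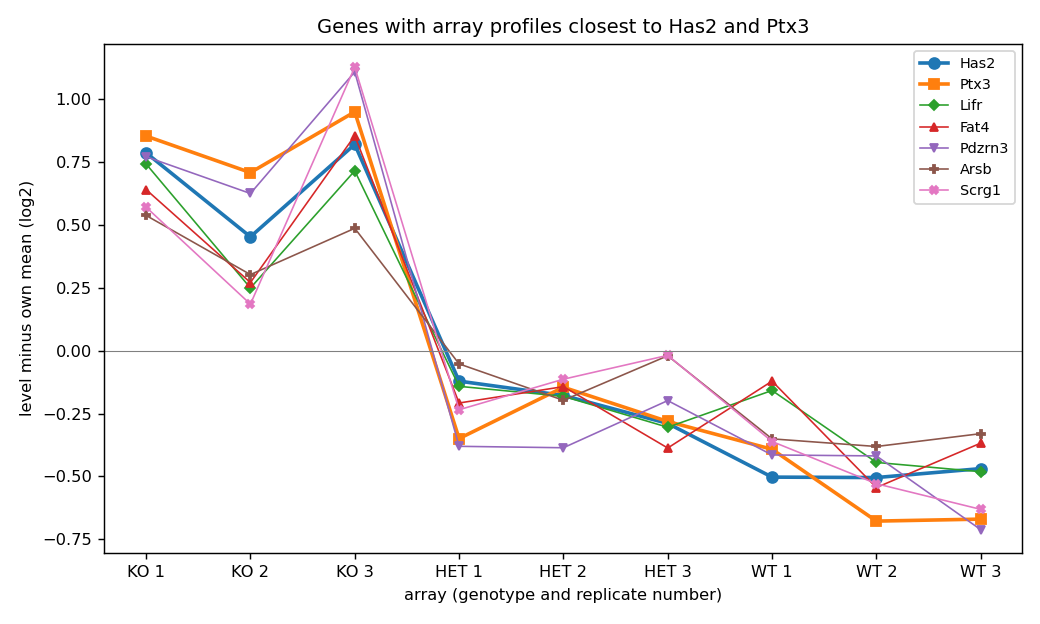
Level of each gene minus its own mean over the 9 arrays (vertical axis, log2) for KO, HET and WT arrays in turn; lines only join the points of a gene. Has2 and Ptx3 are high on the 3 KO arrays with the lowest KO value on replicate 2. The 5 genes beside them share this, having been picked for likeness over these same arrays.

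Levels of cell type markers moved beside these results. The summed level of 5 astrocyte markers (log2 of the sum of unlogged values) was between 9.45 and 9.53 on the KO arrays, 9.81 and 10.29 on the HET arrays and 9.92 and 10.18 on the WT arrays. In KO against WT 4 of these 5 lay below 0, with a median of -0.62, and 1, Aqp4, was called lower. Ependymal markers summed to between 7.98 and 8.40 on the KO arrays, 8.55 and 8.85 on the HET arrays and 8.78 and 8.84 on the WT arrays, with 6 of 6 below 0, a median of -0.39 and 0 called. The lists moved unevenly. Enkur (-1.18), Rsph4a (-0.96) and Ak7 (-0.53) fell most among the ependymal markers, while Foxj1 lay at -0.11 and Tmem212 at -0.10. The astrocyte marker Aldh1l1 lay at 0.21, with every KO array above every WT array. In KO against HET, Gja1 and Rsph4a were called lower. The summed levels of both lists were low on the KO arrays, where Hapln1 was low as well.

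Markers of ventral progenitors and interneuron neuroblasts summed to between 11.77 and 11.997 on the KO arrays, 11.41 and 11.69 on the HET arrays and 11.49 and 11.69 on the WT arrays, with 6 of 7 above 0 in KO against WT, a median of 0.24 and 0 called. Lhx6, at 0.72, moved most, while Dlx1, the brightest of the list, lay at 0.20 and Sp8 at -0.0008. The summed level of this list was high on the KO arrays, where Has2 and Ptx3 were high. Meningeal fibroblast markers summed to between 8.03 and 8.35 on the KO arrays, 8.30 and 8.58 on the HET arrays and 8.41 and 8.65 on the WT arrays, with 5 of 6 below 0 and 1, Ogn, called lower. Ogn, at -1.37, had by far the largest change of this list, whose median was -0.12; Col1a1 lay at -0.09, Col1a2 at -0.15 and Dcn at 0.05, and Lum and Foxc1 were under the lower quartile on all 9 arrays. Oligodendrocyte precursor markers, whose cells also make versican, summed to between 8.37 and 8.39 on the KO arrays, inside the WT range of 8.30 to 8.45, and to between 8.45 and 8.499 on the HET arrays. Neuron, radial glia, endothelial and pericyte, microglia and choroid plexus lists had KO and WT ranges that overlapped, with 0 markers called in KO against WT. The part of these shifts in the levels of Has2, Ptx3 and Hapln1 was not tested.

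**Figure D5:**
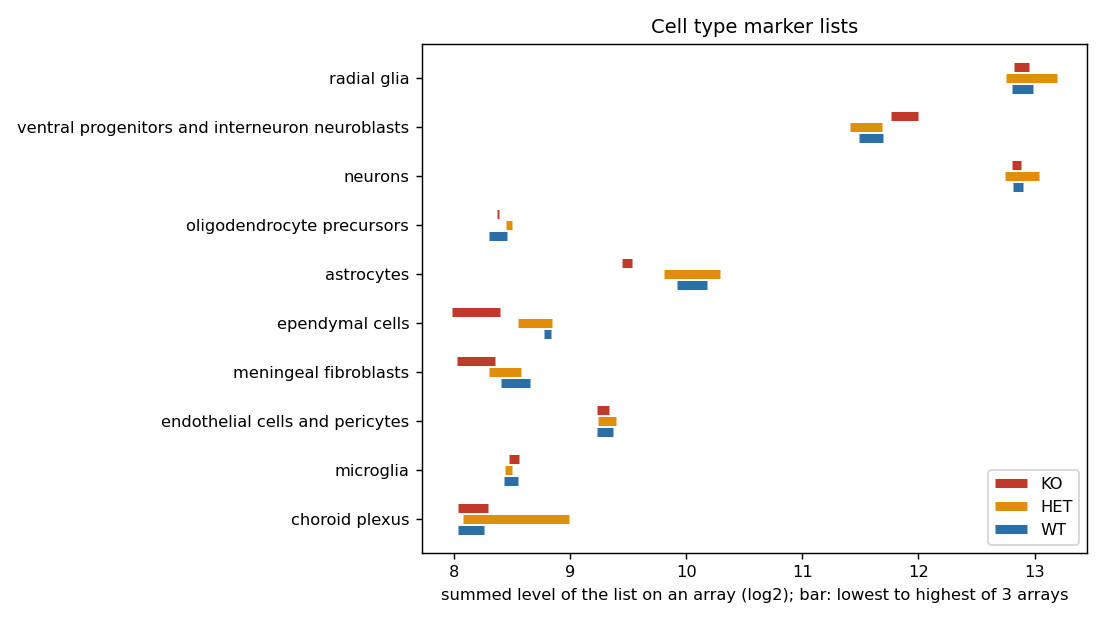
Range over 3 arrays of the summed level of each cell type marker list (horizontal axis, log2 of the sum of unlogged values), for KO, HET and WT from top to bottom. The KO bars lie left of the WT bars for astrocyte and ependymal markers and for meningeal fibroblast markers, where Ogn (-1.37) moved most, and right of them for ventral progenitor and neuroblast markers.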

How the data were processed

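RNA of 9 samples was measured on Affymetrix Mouse Gene ST 1.0 arrays. The deposited table holds the authors' log2 values of 28940 probe sets. RMA, affy and limma appear in the submitters' processing notes, with no version, order or annotation. RMA subtracts background, equalises arrays and condenses the probes of a probe set; 62.9% of genes had the same value, to 6 decimals, on 2 or more arrays. Detection calls were not used here.

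Probe sets with 1 symbol in the platform annotation (21789) were kept, and the highest-mean probe set stood for each of 19938 genes; 1621 probe sets had several symbols and 5530 were not listed. Symbols were checked against a GRCm38.p6 gene table, in which 21698 had a gene ID. A single fit over the 9 arrays, with each genotype's mean, was made in R 4.3.3 with limma 3.58.1 (lmFit, eBayes, two-sided, no filter), tested on simulated data. P-values were adjusted over all 19938 genes by Benjamini-Hochberg, and an adjusted p under 0.05 was a call. The members and lists were chosen with earlier results of these data known. Genes named are the members, the 2 genes of each role group that had the lowest unadjusted p for KO against WT, any called gene of those groups, the 5 nearest profiles to Has2 and Ptx3, and markers beside a result; Acan and Hapln3 were added after their values were seen, as genome neighbours. Alternatives covered blocks, arrays, variance priors, filters, probe set choice, normalization, threshold and the Xist level. Same-numbered arrays of different genotypes correlated between -0.34 and 0.06 in their deviations, and differently numbered arrays between -0.16 and 0.31. The main fit did not pair same-numbered arrays, and these values cannot show whether such arrays were handled together.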

Additional observations from a re-analysis of the deposited data

How the results depend on the processing

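With the replicate number as a block, 3 members were called in KO against WT and 2 in KO against HET; the block removed the KO against HET call of Hapln1. In KO against HET, 1 member was called with only the KO and HET arrays in the fit. With an array left out in turn, 2 to 3 members were called in KO against WT, 0 in HET against WT and 1 to 2 in KO against HET, the 1 without HET replicate 2. The cause was not tested. The other genes of the matrix list had 0 calls in every setting run. Calls over all genes were 90 in KO against WT, with 23 to 151 over the alternatives (151 with array weights, 23 without WT replicate 1), and 41 in KO against HET, with 8 to 75 (8 with only those arrays, 75 without HET replicate 1). With the block they were 72 and 19. Has2, Ptx3 and Hapln1 kept the direction of their calls in all alternatives. The fit without HET replicate 1 and KO replicate 2, which had the lowest array weights (0.547 and 0.364), was added after seeing the data. With the dimmest 1 in 3 genes left out, Has3, Hapln1, Hapln4 and Cd44 were not tested. Levels near the lower quartile limit what can be seen for Has3, Hapln1 and Hapln4.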
